A study of Mus musculus with 25 samples.

Results

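The genes described here are 43 listed genes of mitosis, the step of the cell cycle in which the copied chromosomes are condensed, attached to the spindle and parted, and the cell is divided. They were followed in salivary glands from 25 males of the strain C57BL/6.NOD-Aec1Aec2 at 5 ages. The genes were found by their symbols in the annotation of the array, among probe sets (groups of short probes against 1 transcript region) with 1 symbol, and the list was drawn up with earlier results of these data known. Of the 43 genes, 42 were measured, by 96 probe sets, among 18194 genes on the array. Ccnb1 was not analysed here.

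The C57BL/6.NOD-Aec1Aec2 mouse carries the Idd3 region of chromosome 3 (Aec1) and the Idd5 region of chromosome 1 (Aec2) of the non-obese diabetic (NOD) mouse on a C57BL/6 background, and is used as a model of Sjögren's syndrome, an autoimmune disease of the salivary and lacrimal glands. All mice were untreated males of this genotype, grouped by age: 4 weeks, 8 weeks, 12 weeks, 16 weeks and 20 weeks, with 5 mice each and 1 array per mouse. Every age drew on more than 1 litter, which the labels do not name, and RNA of all glands was prepared together. The study names these ages as stages from before disease (4 weeks) to the onset of clinical disease (20 weeks). RNA came from 1 lobe holding a submandibular, a sublingual and a parotid gland with the salivary lymph nodes removed, and glands of the parental C57BL/6J strain were not analysed here, so a change with age cannot be told apart from a change with disease.

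Mitotic genes are transcribed mainly in the G2 phase and in mitosis, and most of their products are destroyed as the cell leaves mitosis, so that in a tissue their transcripts mark cells that divide. Entry is driven by the kinase Cdk1 with cyclins A and B. The spindle checkpoint holds the cell until every kinetochore is attached, and the anaphase-promoting complex, a ubiquitin ligase, then removes securin and the cyclins. In the salivary gland of a young mouse, acinar and ductal cells divide while the gland grows, and fewer of them do so in the adult. In a whole gland, fewer dividing cells and less RNA per dividing cell cannot be told apart.

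The values are log2 expression values as deposited, and a probe set was taken as expressed when it averaged more than 3.27 over the 25 arrays, the midpoint of the array's probe sets. The 4-week arrays enter that average, so some probe sets counted as expressed only through high 4-week values. Those of Cdca3 (4.94 at 4 weeks, at most 3.03 later) and Racgap1 (4.03, at most 3.16 later) did. For such genes a lower value at later ages is partly built into the rule. A gene's value is the average of its expressed probe sets and, for a gene without one, of every probe set it has. Of the 42 genes, 26 had an expressed probe set and 16 had none, and the values of these 16 are those of probe sets in the lower part of the array's range. Array medians lay between 3.17 and 3.64. The array's floor below means the range under 3.27. It is not a measured limit of detection, and the lowest single value of the array data was 0.127. Of the gland markers, some were high in every mouse: Prol1, a product of acinar cells, averaged 15.44, 15.34, 15.31, 15.22 and 15.30 over the ages in order, and Egf, made in the granular ducts, at 14.32, 14.55, 14.53, 14.48 and 14.57. Others varied between mice. Amy1, an amylase of acinar cells, ranged from 8.42 to 16.0, Krt19, a duct keratin, was under 3.27 in mouse 4 of 4 weeks (2.92) and mouse 3 of 20 weeks (3.13), and in mouse 5 of 16 weeks the acinar genes Dcpp1 and Smgc were at 5.28 and 3.64. The mean over 9 acinar genes lay between 10.07 and 12.87 and that over 7 duct genes between 7.79 and 9.90. The array of mouse 3 at 20 weeks stood apart, with a median correlation of 0.887 to the other arrays of its age, where no other array was under 0.973, and the highest array median. Its 3-prime minus 5-prime differences were 5.36 for the actin control and 3.87 for the Gapdh control, against at most 3.75 and 1.68 in the other 24 arrays.

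Transcripts of many mitosis genes were lower at each later age than at 4 weeks. Fold changes below are log2 differences in order of age, each against 4 weeks, and SE is that of the fit. In limma's moderated test over all 18194 genes (Benjamini-Hochberg adjusted p under 0.05, the meaning of fell, rose and passed below), 18 of 42 genes fell and 0 rose at 8 weeks, against 0.78% of all genes called lower and 1.48% called higher. At 12 weeks 20 fell and 1 rose, against 1.36% of all genes called lower and 5.66% called higher. At 16 weeks 17 fell and 0 rose (1.68% and 1.71% of all genes), and at 20 weeks 15 fell and 0 rose (1.52% and 1.14%). The median log2 fold change of the 42 genes was -0.53, -0.54, -0.48 and -0.32 at 8, 12, 16 and 20 weeks against 4 weeks, beside -0.03, -0.03, -0.02 and 0.04 over all genes. At 8 weeks 41 of the 42 fold changes were below 0, the exception being the securin gene Pttg1.

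Over the 4 comparisons with 4 weeks, 20 genes fell at 1 age or more, 15 of them at all 4 ages, 1 gene rose at 1 age and 21 passed at no age. The F-test over the 5 ages passed 17 of the 42 genes (4.66% of all genes), and 10 had a B-statistic, the log odds of a change with age, above 1.5 for at least 1 polynomial term of age (1.92% of all genes). All 5 mice of 8 weeks lay below all 5 mice of 4 weeks in 26 of the 42 genes and above them in 0 (4.05% and 4.58% of all genes). At 12 weeks 29 genes lay below and 1 above (21.1% and 12.5% of all genes), at 16 weeks 13 and 0 (2.16% and 2.22%), and at 20 weeks 12 and 0 (1.35% and 1.22%). Of the genes called lower, the call held without each of the 25 arrays in turn for 14 of 18 at 8 weeks, 16 of 20 at 12 weeks, 13 of 17 at 16 weeks and 14 of 15 at 20 weeks. The spread was estimated over all 5 ages, and a fit on the compared ages alone called 8, 19, 6 and 7 genes at these ages, where it called 0.396%, 2.86%, 0.682% and 0.209% of all genes lower and 0.594%, 10.7%, 0.44% and 0.0495% higher. The array of mouse 3 at 20 weeks bore on every count: without it 24, 27, 24 and 24 genes passed, 24, 26, 23 and 23 of them lower, and the shares of all genes grew too, to 1.68%, 3.29%, 3.23% and 2.65% called lower and 5.14%, 13.3%, 4.11% and 6.23% called higher.

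**Figure D1:**
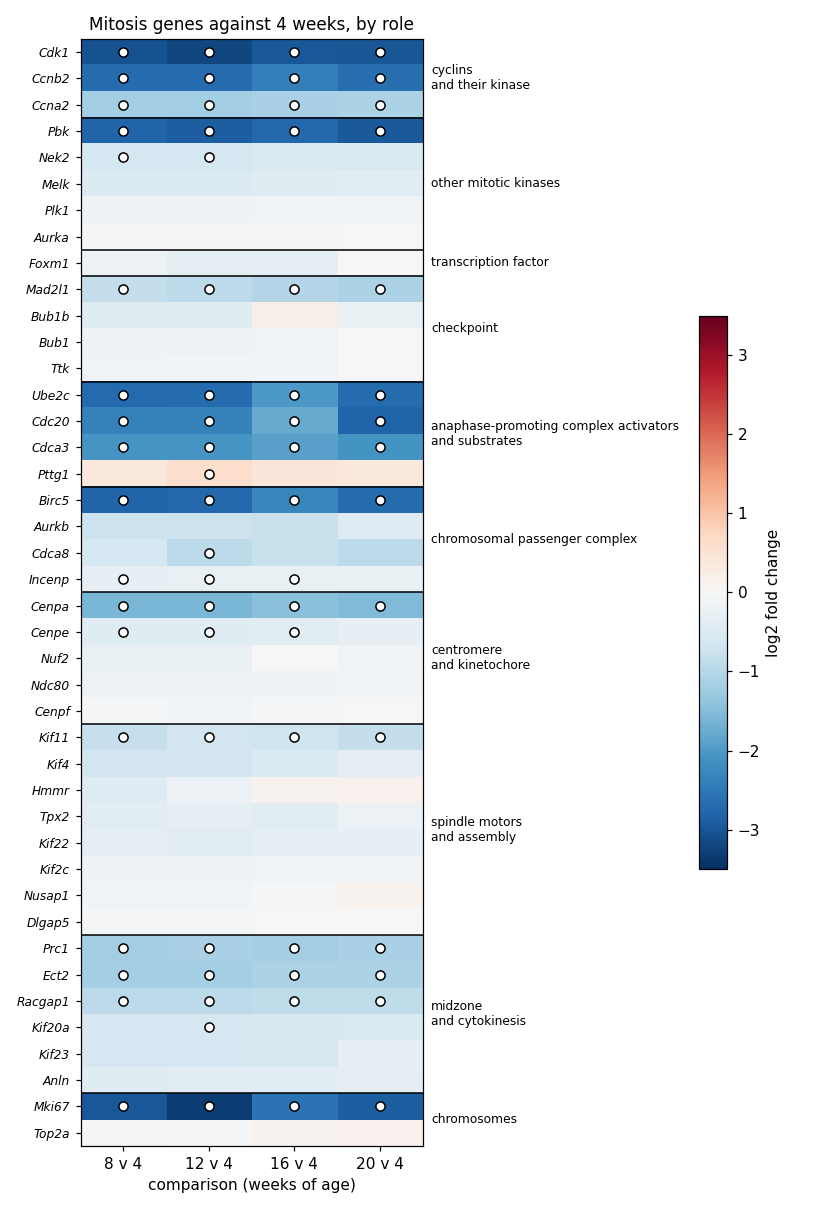
Log2 fold change of each of the 42 mitosis genes (rows, grouped by role) at 8, 12, 16 and 20 weeks against 4 weeks (columns), on a colour scale from blue (lower than at 4 weeks) to red (higher). White circles mark an adjusted p under 0.05: 15 genes carry a circle in all 4 columns and 21 carry none.

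Many mitotic genes share 2 short motifs near their start: the CCAAT box, read by the factor NF-Y, and the cell cycle genes homology region (CHR), read by the MuvB core of the DREAM complex. Both were searched in RefSeq promoter windows of build GRCm38.p6, from 250 bases before to 50 bases after the start, as CCAAT or ATTGG and as TTTGAA or its reverse complement TTCAAA and as TTCGAA, which is its own reverse complement. A window was found for 34 of the 42 genes. A CCAAT match was present in 25 of these 34 (73.5%), beside 42% of the 14453 array genes with a window. A CHR match was present in 26 of 34 (76.5%, beside 17.5%), and both in 23 of 34 (67.6%, beside 7.05%). Over all 32851 windows of the table the shares were 37.4% for CCAAT, 19.2% for CHR and 7.52% for both. These matches are descriptions of letters, and binding was not measured.

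The 150 bases before the start are shown for 5 genes with large decreases at all ages (Cdk1, Ccnb2, Cdc20, Ube2c and Mki67), for Cenpa and Kif11 with smaller decreases at all ages, for Top2a, whose probe sets disagreed, and for Pttg1, the gene that rose. They run 5′ to 3′ on the strand of the gene and end at the base before the start, with capitals on every CCAAT or CHR match.
Cdk1 (chr10:69352913-69353062, - strand): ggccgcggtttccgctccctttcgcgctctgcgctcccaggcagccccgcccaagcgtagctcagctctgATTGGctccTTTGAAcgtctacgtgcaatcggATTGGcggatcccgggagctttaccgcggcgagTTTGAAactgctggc
Ccnb2 (chr9:70421555-70421704, - strand): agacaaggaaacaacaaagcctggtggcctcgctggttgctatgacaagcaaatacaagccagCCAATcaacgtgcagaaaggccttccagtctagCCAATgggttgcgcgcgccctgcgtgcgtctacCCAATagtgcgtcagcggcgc
Cdc20 (chr4:118437344-118437493, - strand): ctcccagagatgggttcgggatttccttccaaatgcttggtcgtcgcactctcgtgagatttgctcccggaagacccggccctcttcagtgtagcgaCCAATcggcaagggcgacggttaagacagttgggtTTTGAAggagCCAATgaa
Ube2c (chr2:164769779-164769928, + strand): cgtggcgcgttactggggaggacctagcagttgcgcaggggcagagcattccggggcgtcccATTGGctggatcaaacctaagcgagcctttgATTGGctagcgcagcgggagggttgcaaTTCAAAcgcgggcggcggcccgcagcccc
Mki67 (chr7:135716380-135716529, - strand): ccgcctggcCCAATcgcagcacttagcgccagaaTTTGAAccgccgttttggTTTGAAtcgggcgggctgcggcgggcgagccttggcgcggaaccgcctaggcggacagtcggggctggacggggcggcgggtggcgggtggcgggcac
Cenpa (chr5:30666736-30666885, + strand): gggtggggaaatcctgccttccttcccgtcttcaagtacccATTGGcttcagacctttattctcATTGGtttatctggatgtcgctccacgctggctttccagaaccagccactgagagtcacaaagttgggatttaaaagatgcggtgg
Kif11 (chr19:37376232-37376381, + strand): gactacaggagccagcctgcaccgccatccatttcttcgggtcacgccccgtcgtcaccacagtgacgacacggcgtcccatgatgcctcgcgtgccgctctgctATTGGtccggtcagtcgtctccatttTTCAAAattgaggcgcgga
Top2a (chr11:99024190-99024339, - strand): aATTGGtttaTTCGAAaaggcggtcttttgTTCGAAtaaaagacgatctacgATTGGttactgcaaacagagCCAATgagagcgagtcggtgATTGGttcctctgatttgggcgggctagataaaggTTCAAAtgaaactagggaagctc
Pttg1 (chr11:43425982-43426131, - strand): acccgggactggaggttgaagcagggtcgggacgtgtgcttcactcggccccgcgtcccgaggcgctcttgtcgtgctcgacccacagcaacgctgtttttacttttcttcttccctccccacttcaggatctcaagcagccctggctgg
The Cdk1 stretch held 2 CCAAT matches and 2 CHR matches, the nearer CHR starting 15 bases before the start of the gene. In Cdc20 and Ube2c 2 CCAAT matches stood beside 1 CHR match. The Ccnb2 stretch held 3 CCAAT matches, and its nearest CHR match lay after the start, outside what is shown. Top2a had 4 CCAAT and 3 CHR matches, the most of those shown. The window of Pttg1 held neither motif, as did those of Birc5, Mad2l1, Melk, Nuf2 and Nusap1, and of these 6 genes Birc5 and Mad2l1 fell at all 4 ages. The stretch shown for Pttg1 lay inside the span of the gene (chr11:43420244-43427463). The bases before the outer end of that span were not searched, so the lack of a match does not describe them. Among genes that fell at any age with a window, 12 of 16 (75%) held both motifs, and among genes that passed at no age 11 of 17 (64.7%) did.

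**Figure D2:**
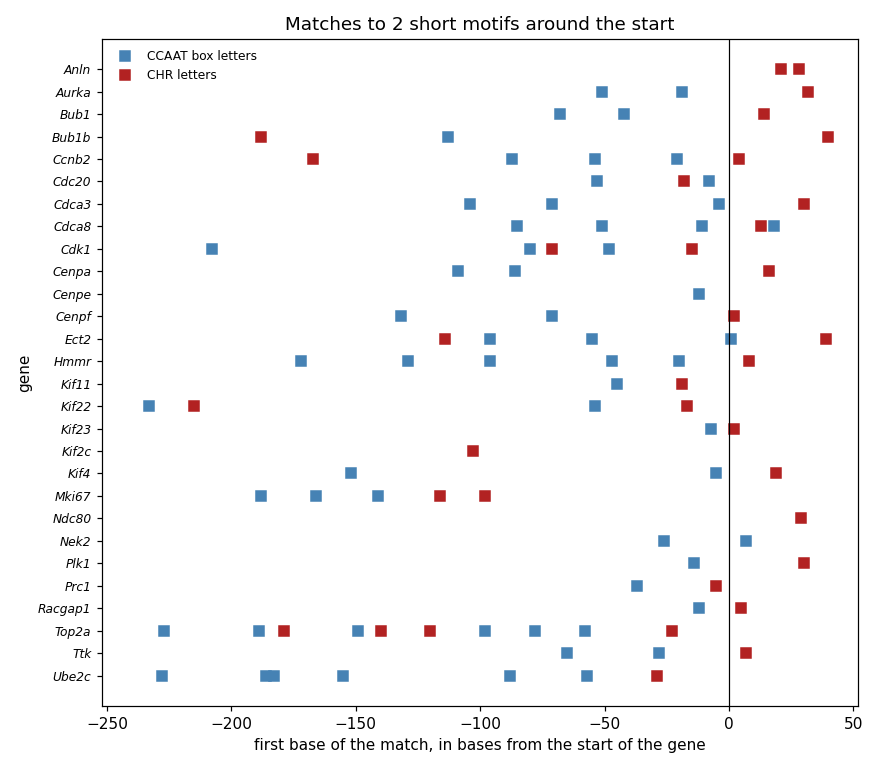
First base of each CCAAT match (blue) and CHR match (red), in bases from the start of the gene, for the 28 mitosis genes with a match, with the first of 2 windows drawn for Ect2 and Prc1. The CHR matches of 26 genes begin at positions from -215 to 40.

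The kinase Cdk1, which drives entry into mitosis, and its measured cyclins, Ccnb2 and Ccna2, fell at every later age. Cdk1 had 2.86, 2.87, 2.84, 2.86 and 2.83 at 8 weeks and 5.31, 6.66, 4.94, 6.63 and 5.94 at 4 weeks, mouse 1 to mouse 5. The mice of 8 weeks lay within 0.05 of each other and all 20 later mice, between 2.44 and 3.26, were below the lowest mouse of 4 weeks. Cdk1 fell by 3.04, 3.20, 2.96 and 3.00 on the log2 scale (SE 0.23, adjusted p = 2.85e-08 at 8 weeks), with the 8-week values under 3.27 and near the array's floor.

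Ccnb2, cyclin B2, had 2.07, 2.36, 2.31, 2.63 and 2.33 at 8 weeks, against 4.53, 5.37, 5.43, 5.18 and 4.67 at 4 weeks. Its log2 fold change was -2.70, -2.70, -2.40 and -2.64 at 8, 12, 16 and 20 weeks (SE 0.17, adjusted p = 7.56e-09 at 8 weeks), and all 20 later mice, with mouse 3 of 16 weeks the highest at 3.32, were below the lowest mouse of 4 weeks. Ccna2, cyclin A2, which acts in S phase and early mitosis, lay at 2.39, 2.41, 2.37, 2.38 and 2.35 at 8 weeks and at 2.72, 4.10, 4.02, 4.13 and 2.85 at 4 weeks. Its 4-week mice fell apart into 3 near 4.1 (mice 2, 3 and 4) and 2 near 2.8 (mice 1 and 5), and 19 of the 20 later mice were below the lowest of them. It fell by 1.18, 1.19, 1.13 and 1.10 on the log2 scale at 8, 12, 16 and 20 weeks (SE 0.20, adjusted p = 0.00287 at 8 weeks).

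Of the 5 other mitotic kinases, Pbk and Nek2 fell at 8 and 12 weeks and Pbk alone at 16 and 20 weeks. Pbk, a kinase of dividing cells, had 3.42, 3.40, 3.34, 3.38 and 3.70 at 8 weeks, against 5.71, 6.57, 6.42, 6.85 and 5.70 at 4 weeks, with no overlap at any later age (highest later mouse 4.03). The log2 fold changes of Pbk were -2.80, -2.88, -2.75 and -2.94 (SE 0.20, adjusted p = 2.11e-08 at 8 weeks). Nek2, a centrosome kinase, fell at 8 weeks (-0.62, adjusted p = 0.043) and at 12 weeks (-0.62, adjusted p = 0.0216), calls lost without any 1 of 18 arrays at 8 weeks and of 5 at 12 weeks (mice 2, 3 and 4 of 4 weeks among both).

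Melk, Plk1 and Aurka passed at no age. Melk ranged over 2.83, 2.87 and 2.90 (lowest, median and highest mouse) at 8 weeks and 2.89, 3.18 and 3.91 at 4 weeks, with mice 2 and 5 of 4 weeks the high ones. Plk1, the polo-like kinase, had 2.06, 2.09 and 2.11 at 8 weeks and 2.10, 2.15 and 2.77 at 4 weeks, where 1 mouse (mouse 4) stood above the others. Aurka, the spindle pole kinase, had 2.14, 2.15 and 2.18 at 8 weeks and 2.17, 2.19 and 2.26 at 4 weeks. Plk1 and Aurka stayed near the lower end of the array's range at every age. Aurka was called lower at all 4 ages with array weights and without the 3 arrays of lowest correlation, settings that called between 6.1% and 34.4% of all genes lower, and Plk1 in neither.

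Foxm1, the transcription factor of the G2 and mitosis program, passed at no age. It had 3.89, 3.89 and 4.26 (lowest, median and highest) at 8 weeks and 3.91, 4.08 and 4.53 at 4 weeks, and the log2 fold changes were -0.18, -0.33, -0.31 and -0.02 at 8, 12, 16 and 20 weeks (SE 0.13).

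Among the 4 spindle checkpoint genes, Mad2l1 fell at every later age and Bub1, Bub1b and Ttk at none. Mad2l1, which encodes the protein that holds back the activator Cdc20 until kinetochores are attached, had 7.32, 7.45, 7.31, 7.16 and 7.19 at 4 weeks, 6.73, 5.99, 6.35, 6.53 and 6.60 at 8 weeks and 5.95, 5.82, 6.37, 6.42 and 6.30 at 20 weeks, without overlap between 4 weeks and any later age. Mad2l1 had log2 fold changes of -0.85, -0.92, -1.02 and -1.11 (SE 0.16, adjusted p = 0.00765 at 8 weeks and 0.000399 at 20 weeks), and 20 weeks against 8 weeks did not pass.

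Bub1b, which binds Cdc20 with Mad2l1, had 3.31, 3.47 and 3.51 at 8 weeks and 3.47, 3.60 and 4.37 at 4 weeks, and mouse 2 of 16 weeks was the highest of all 25 mice at 5.13. Bub1, a kinetochore kinase, had 2.86, 2.93 and 2.97 at 8 weeks and 2.98, 3.08 and 3.32 at 4 weeks. Ttk, the kinase that starts the checkpoint, had 2.63, 2.66 and 2.69 at 8 weeks and 2.68, 2.72 and 2.95 at 4 weeks. At 20 weeks mouse 3 was the highest of its age in Bub1, Bub1b and Ttk, at 3.62, 4.06 and 3.25.

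The genes that act with the anaphase-promoting complex fell with 1 exception. Cdc20, which activates the complex in mitosis, had 7.56, 8.97, 8.45, 8.10 and 7.75 at 4 weeks, 5.72, 5.62, 5.50, 6.40 and 5.80 at 8 weeks, 5.96, 5.43, 7.36, 7.64 and 5.67 at 16 weeks and 3.93, 4.89, 6.70, 5.39 and 5.92 at 20 weeks. Mice 3 and 4 of 16 weeks stood high, mouse 4 within the 4-week range, and mouse 1 of 20 weeks was the lowest of all. The log2 fold change was -2.36, -2.37, -1.75 and -2.80 at 8, 12, 16 and 20 weeks (SE 0.44), with adjusted p = 0.00569 at 8 weeks and 0.0273 at 16 weeks, a call lost without any 1 of 6 arrays, mice 2, 3 and 4 of 4 weeks and mice 1, 2 and 5 of 16 weeks. The value of Cdc20 came from 1 expressed probe set. A second, at 4.87 at 4 weeks and 2.68 at 8 weeks, had log2 fold changes of -2.19, -2.18, -1.90 and -2.19 (SE 0.23). Tested singly, it fell at every age (adjusted p = 4.30e-05 at 16 weeks). The third, at 2.85 at 4 weeks, did not pass.

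Ube2c, the ubiquitin-conjugating enzyme that serves the complex, had 2.92, 2.62, 2.87, 2.43 and 2.93 at 8 weeks, against 5.06, 6.62, 5.29, 5.83 and 4.54 at 4 weeks, and at 16 weeks 2.96, 3.23, 4.21, 3.87 and 2.96. All 20 later mice lay below the lowest mouse of 4 weeks, with mouse 3 of 16 weeks nearest to it. Its log2 fold change was -2.72, -2.69, -2.02 and -2.70 (SE 0.32, adjusted p = 3.51e-05 at 8 weeks), with the 8-week values near the array's floor. Cdca3, a target of the complex, had 2.83, 2.74, 2.90, 2.90 and 3.03 at 8 weeks and 4.01, 6.33, 5.04, 5.17 and 4.13 at 4 weeks, and fell by 2.06, 2.06, 1.90 and 2.10 on the log2 scale at 8, 12, 16 and 20 weeks (SE 0.27, adjusted p = 0.000134 at 8 weeks). Its value came from 1 expressed probe set, and its other 2, at 1.79 and 1.62 at 4 weeks, had log2 fold changes of -0.03 and -0.02 at 8 weeks and of the other sign at 20 weeks.

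Pttg1, securin, the inhibitor of separase that the complex removes at anaphase, was the gene that went the other way. It had 10.38, 10.73, 10.32, 10.58 and 10.58 at 12 weeks and 10.24, 9.82, 9.83, 9.54 and 10.06 at 4 weeks, so that all 5 mice of 12 weeks were above all 5 mice of 4 weeks (12.5% of all genes), the nearest by under 0.1. Its log2 fold change was 0.37, 0.62, 0.44 and 0.37 at 8, 12, 16 and 20 weeks (SE 0.17), and the 12-week value passed (adjusted p = 0.0342, with 5.66% of all genes called higher at that age). Of its 2 expressed probe sets tested singly, that at 11.06 at 4 weeks passed at 12 weeks (0.51, adjusted p = 0.00946) and that at 8.73 did not (0.74, adjusted p = 0.181). The rise at 12 weeks was not called after quantile normalization (0.25, adjusted p = 0.466), with each array centred on its median (0.68, adjusted p = 0.0598) or with a trend and robust prior (adjusted p = 0.0507). It was also lost without any 1 of 6 arrays, mice 2, 3 and 4 of 4 weeks and mice 2, 4 and 5 of 12 weeks (adjusted p between 0.0686 and 0.12).

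**Figure D3:**
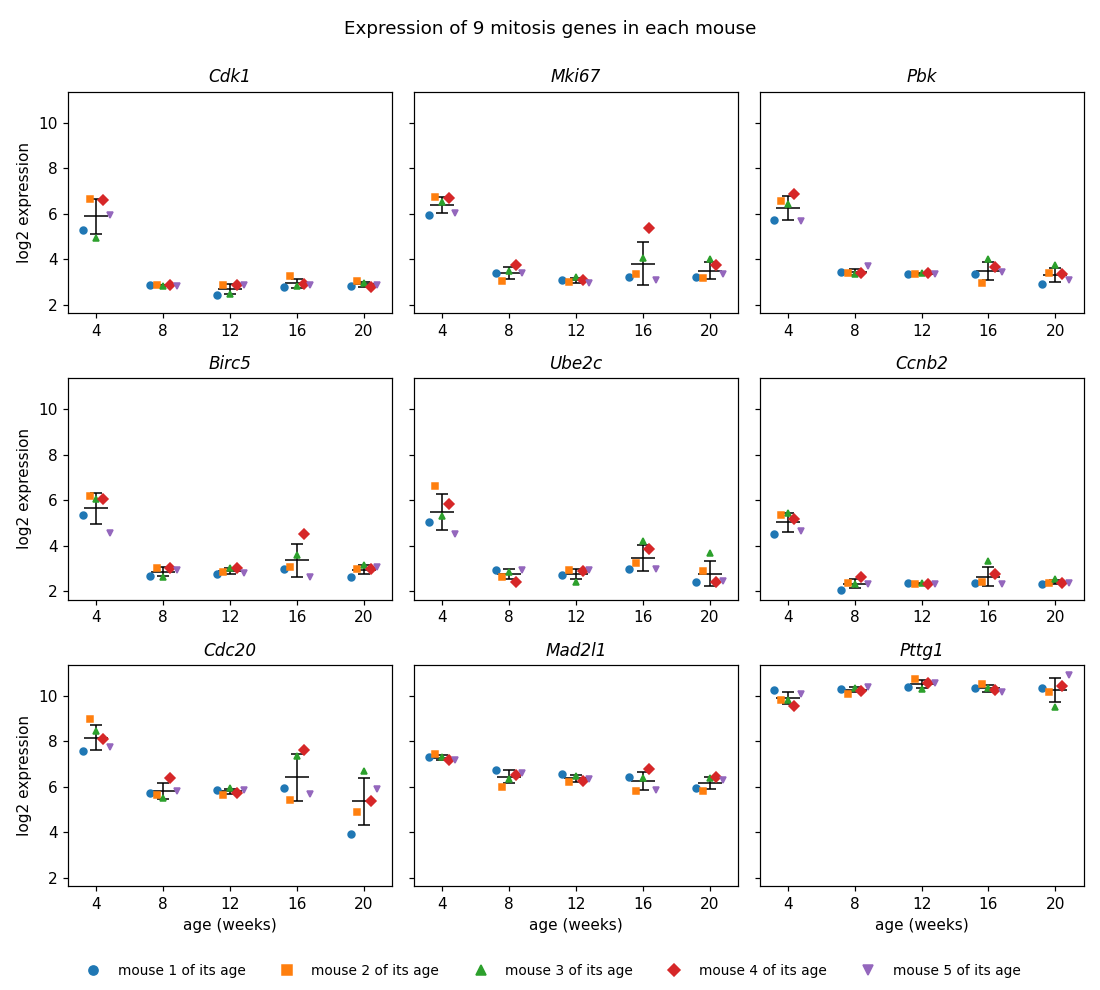
Log2 expression of 9 mitosis genes in each of the 25 mice (points, with a shape and colour for the mouse number within an age) against age in weeks, with the mean and SD of 5 mice (bars). Of the 9, 8 were highest at 4 weeks, Mki67, Cdc20, Ube2c and Birc5 were raised in mice 3 and 4 of 16 weeks, and Pttg1 lay between 9.49 and 10.93 in all mice.

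Of the chromosomal passenger complex, which corrects attachments of the kinetochores and acts again in cytokinesis, Birc5 fell at every later age. Birc5, survivin, had 5.33, 6.21, 6.04, 6.06 and 4.57 at 4 weeks, 2.66, 3.03, 2.61, 3.01 and 2.95 at 8 weeks and 2.99, 3.07, 3.60, 4.51 and 2.64 at 16 weeks. All 20 later mice were below the lowest mouse of 4 weeks, but mouse 4 of 16 weeks came within 0.1 of it. The log2 fold change was -2.79, -2.75, -2.28 and -2.69 (SE 0.29, adjusted p = 5.72e-06 at 8 weeks).

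Incenp, the scaffold of the complex, fell at 8, 12 and 16 weeks by 0.29, 0.26 and 0.27 on the log2 scale, calls lost without mouse 4 of 4 weeks at each of these ages, without mouse 3 of 4 weeks at 8 and 16 weeks, and without mouse 3 of 16 weeks at 16 weeks. Cdca8, borealin, fell at 12 weeks (-0.91, adjusted p = 0.0351) and was at -0.61 at 8 weeks (adjusted p = 0.262), the 12-week call being lost without any 1 of 7 arrays, mice 2, 3 and 4 of 4 weeks and mice 1, 2, 4 and 5 of 12 weeks. Aurkb, the kinase of the complex, had 3.80, 3.86 and 3.90 (lowest, median and highest) at 8 weeks and 3.89, 4.57 and 5.53 at 4 weeks and passed at no age, with log2 fold changes of -0.75, -0.74, -0.78 and -0.44 (SE 0.25). Aurkb was called lower at all 4 ages without mouse 3 of 20 weeks (1.68% to 3.29% of all genes) and with array weights (6.1% to 34.4%). With all probe sets averaged it was called lower at 8, 12 and 16 weeks (0.769% to 1.74% of all genes).

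Of the 5 centromere and kinetochore genes, Cenpa fell at every later age and Cenpe at 8, 12 and 16 weeks. Cenpa, the histone H3 variant that marks centromeres, had 3.28, 3.32, 3.38, 3.30 and 3.20 at 8 weeks, against 3.47, 5.33, 5.90, 5.35 and 4.46 at 4 weeks, where mouse 1 was the low one at 3.47 and lay below 3 of the 20 later mice. The gene fell by 1.61, 1.60, 1.46 and 1.54 (SE 0.29, adjusted p = 0.00423 at 8 weeks). The value came from 1 expressed probe set, and the other 2, at 2.45 and 3.14 at 4 weeks, had differences of 0.11 and 0.20 at 20 weeks that did not pass. Cenpe, the kinetochore motor, had log2 fold changes of -0.41, -0.42, -0.39 and -0.30 at 8, 12, 16 and 20 weeks (SE 0.10). Its calls were lost with the brightest probe set alone, and without any 1 of 5 arrays at 8 weeks and of 6 at 16 weeks (mice 3 and 4 of 4 weeks among both).

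The other 3 kinetochore genes passed at no age. Ndc80 and Nuf2 form the arm that grips microtubules: Ndc80 had 2.59, 2.63 and 2.66 at 8 weeks and 2.64, 2.74 and 3.35 at 4 weeks. Nuf2 had 2.76, 2.84 and 2.90 at 8 weeks and 2.96, 3.04 and 3.33 at 4 weeks. Cenpf, of the outer kinetochore, had 2.25, 2.28 and 2.33 at 8 weeks and 2.31, 2.35 and 2.42 at 4 weeks. In all 3 genes the 4-week mean was below 3.27. Of the probe sets of Cenpf, 1 at 2.18 at 8 weeks and 2.37 at 4 weeks fell by 0.20 on the log2 scale when tested singly (adjusted p = 0.0248).

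Of the 8 genes of spindle motors and assembly, Kif11 fell at every later age and the other 7 passed at none. Kif11, the motor that pushes the spindle poles apart, had 3.95, 4.04, 4.01, 4.01 and 3.83 at 8 weeks and 4.75, 5.34, 4.42, 5.06 and 4.32 at 4 weeks, and 19 of the 20 later mice were below the lowest mouse of 4 weeks. Kif11 fell by 0.81, 0.67, 0.69 and 0.85 (SE 0.15, adjusted p = 0.00468 at 8 weeks). Its value came from 1 expressed probe set, while the other 2, at 1.94 and 2.59 at 4 weeks, lay near the floor and had fold changes of both signs, none past the test.

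Kif22, a motor on chromosome arms, had 3.98, 4.07 and 4.59 at 8 weeks and 4.11, 4.32 and 5.33 at 4 weeks. Kif4, a chromosome motor, had 2.22, 2.30 and 2.32 at 8 weeks and 2.31, 2.37 and 4.03 at 4 weeks, where mice 2 and 4 reached 3.55 and 4.03 and the other 3 lay at the floor near 2.3. Kif2c, which takes microtubules apart at centromeres, had 2.54, 2.58 and 2.60 at 8 weeks and 2.63, 2.71 and 2.94 at 4 weeks. Kif4 therefore had a spread at 4 weeks (SD 0.81) larger than its difference from 8 weeks (-0.65).

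Tpx2, which activates Aurka on the spindle, had 2.60, 2.69 and 2.71 at 8 weeks and 2.74, 2.80 and 3.88 at 4 weeks. Hmmr, a spindle protein and hyaluronan receptor, had 4.25, 4.33 and 4.88 at 4 weeks, 3.70, 4.04 and 4.20 at 8 weeks and 3.93, 4.10 and 6.11 at 20 weeks, with mouse 3 of 20 weeks the highest of all mice. Nusap1, which bundles microtubules, had 3.35, 3.42 and 3.47 at 8 weeks and 3.43, 3.52 and 3.59 at 4 weeks. Dlgap5, which stabilises microtubules near chromosomes, did not leave the floor, with 2.19, 2.20 and 2.23 at 8 weeks and 2.23, 2.24 and 2.26 at 4 weeks.

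Of the 6 genes of the central spindle and cytokinesis, Prc1, Ect2 and Racgap1 fell at every later age. Prc1, which bundles the midzone microtubules, had 4.09, 4.06, 3.88, 4.08 and 3.86 at 8 weeks and 4.81, 5.21, 6.03, 5.59 and 4.48 at 4 weeks, without overlap at any later age. Prc1 fell by 1.23, 1.14, 1.18 and 1.12 (SE 0.19, adjusted p = 0.000723 at 8 weeks). Racgap1, which with Kif23 forms centralspindlin, had 3.13, 3.14, 3.09, 3.17 and 3.09 at 8 weeks, against 3.34, 5.38, 3.97, 4.09 and 3.39 at 4 weeks, with mouse 2 of 4 weeks far above the others. All 20 later mice were below the lowest of them, though the nearest came within 0.1 of it. The log2 fold change was -0.91, -0.92, -0.88 and -0.88 (SE 0.23, adjusted p = 0.0379 at 8 weeks), a call lost without mouse 3 or 4 of 4 weeks or any 1 mouse of 8 weeks (adjusted p between 0.0622 and 0.0948). Its calls at 16 and 20 weeks were lost without any 1 of 6 and of 13 arrays. A second probe set, not counted as expressed, fell by 0.91 at 8 weeks, and the third, at 2.76 at 4 weeks, did not pass.

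Ect2, which starts the contractile ring, had log2 fold changes of -1.19, -1.20, -1.10 and -1.10 (SE 0.24, adjusted p = 0.00973 at 8 weeks). Kif20a, a midzone motor, fell at 12 weeks (-0.60, adjusted p = 0.0336), a call lost without mouse 3 of 4 weeks or any 1 mouse of 12 weeks. Kif23 and the ring scaffold Anln passed at no age: Kif23 had 3.75, 3.85 and 3.97 at 8 weeks and 4.12, 4.53 and 4.80 at 4 weeks, without overlap, and a log2 fold change of -0.58 (adjusted p = 0.22). Anln had 2.58, 2.64 and 2.65 at 8 weeks and 2.68, 2.83 and 3.87 at 4 weeks, with mouse 3 of 4 weeks the high one.

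Mki67 and Top2a act on the chromosomes themselves. Mki67, which coats mitotic chromosomes and marks cycling cells, had 5.97, 6.74, 6.51, 6.69 and 6.03 at 4 weeks, 3.38, 3.06, 3.46, 3.76 and 3.37 at 8 weeks and 3.22, 3.35, 4.04, 5.36 and 3.09 at 16 weeks. All 20 later mice were below the lowest mouse of 4 weeks, and mouse 4 of 16 weeks was the nearest. Mki67 had log2 fold changes of -2.98, -3.32, -2.57 and -2.89 (SE 0.30), with adjusted p = 9.04e-07 at 12 weeks, where all 5 mice were under 3.27 and near the array's floor. Differences that end at the floor may understate a change.

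Top2a, the topoisomerase that untangles sister chromatids, passed at no age as a mean, with 3.34, 3.43 and 3.45 (lowest, median and highest) at 8 weeks and 3.45, 3.51 and 3.54 at 4 weeks. That mean came from 2 probe sets at 3.33 and 3.66 at 4 weeks. Its remaining probe set was not counted as expressed, because its mean over all arrays was low, and had 2.58, 2.58, 2.54, 2.77 and 2.54 at 8 weeks, against 4.11, 4.94, 5.58, 4.40 and 3.62 at 4 weeks. Tested singly over all 34958 probe sets, it fell by 1.93, 1.98, 1.72 and 1.90 on the log2 scale at 8, 12, 16 and 20 weeks (adjusted p = 7.38e-05 at 8 weeks). For Top2a the result thus depended on which probe sets were averaged.

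The same was seen in other genes when the 96 probe sets were tested singly. At 8 weeks 28 probe sets of 22 genes fell and 0 rose, against 0.486% of all probe sets called lower and 1.03% called higher, and 13 of these 28 had not been counted as expressed. At 12 weeks 33 fell and 1 rose (0.99% and 3.96% of all probe sets), at 16 weeks 25 and 1 (1.16% and 1.32%), and at 20 weeks 23 and 0 (0.947% and 0.701%). Over the 4 comparisons 34 probe sets of 27 genes passed, among them 6 genes that passed at no age as a mean: Top2a, Cenpf, Bub1b, Foxm1, Kif2c and Kif23. At 12 weeks 1 probe set of Foxm1 (-0.32, adjusted p = 0.0324) and 1 of Kif23 (-1.13, adjusted p = 0.0293) fell. In Kif2c 1 probe set fell at 8, 12 and 16 weeks (-0.60, -0.61 and -0.58, adjusted p = 0.0481, 0.0212 and 0.0415). For Cdca8, 2 probe sets left out of its mean had 2.69 and 2.10 on average at 8 weeks, against 4.44 and 4.19 at 4 weeks, and both fell at 8 weeks. For Bub1b, a probe set left out of its mean fell by 0.54 on the log2 scale at 8 weeks (adjusted p = 0.0192). For Incenp, a probe set at 2.54 at 8 weeks and 4.25 at 4 weeks fell by 1.72, against 0.29 for its expressed probe set.

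The level at 4 weeks differed between probe sets that passed and those that did not. That level is also a term of each fold change, so a higher level among those that fell is partly built in. Of the 28 that fell at 8 weeks, 27 had a 4-week mean above 3.27, with a median of 4.65, and of the other 68, 24 did, with a median of 2.97. By gene, the 20 that fell at any age had 4-week means between 3.41 and 8.17 (median 4.92), and the 21 that passed at no age had means between 2.20 and 4.59 (median 3.08), 9 of them above 3.27. At 4 weeks 30 of the 42 gene means were above 3.27, and at 8, 12, 16 and 20 weeks 20, 19, 22 and 20 were, beside 64.3%, 62.9%, 63.0%, 63.9% and 65.2% of all genes at the 5 ages. A value at the floor at both ages gives little measure of change, so the genes that passed at no age are not shown to have stayed the same.

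**Figure D4:**
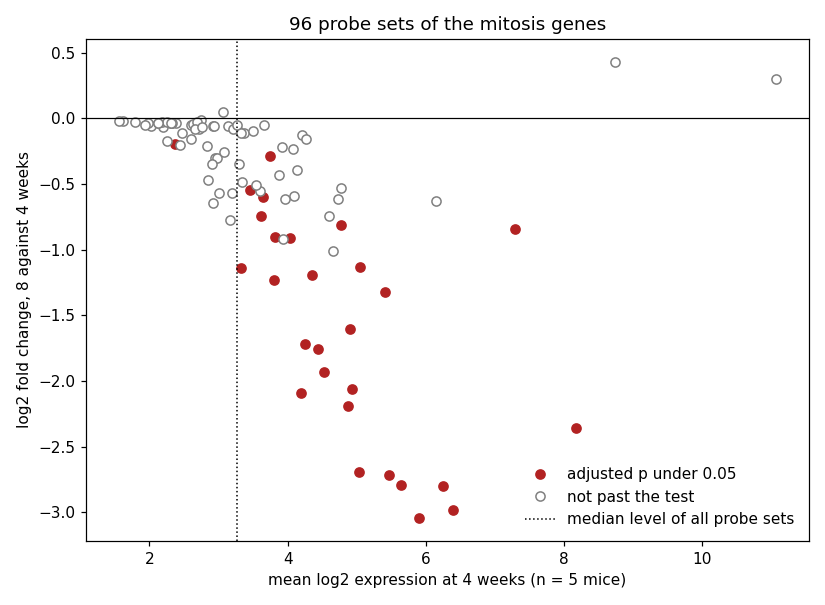
Log2 fold change at 8 weeks against 4 weeks (vertical axis) by the mean log2 expression at 4 weeks (horizontal axis) for the 96 probe sets of the mitosis genes. The 4-week mean enters both axes. Filled red points are the 28 with an adjusted p under 0.05, open points the other 68, and the dotted line the median level of 3.27 over all probe sets with 1 filled point to its left.

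Between the later ages none of the 42 genes passed in the comparisons of 12 with 8 weeks, 16 with 12 weeks, 20 with 16 weeks and 20 with 8 weeks, where 0.0% and 0.0055%, 0.0055% and 0.0%, 0.0165% and 0.011%, and 0.0605% and 0.022% of all genes were called lower and higher. At an unadjusted p under 0.05 there were 0, 3, 3 and 0 genes in these comparisons. For the 18 genes that fell at 8 weeks, the log2 fold change at 20 weeks against 8 weeks lay between -0.45 (Cdc20) and 0.11 with a median of 0.06. The 95% intervals of these 18 reached from -1.36 to 0.73, so single genes may differ between 8 and 20 weeks by up to these bounds. At 16 against 12 weeks the 18 values lay between -0.11 and 0.74 (Mki67), with a median of 0.11.

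The 5 mice of 4 weeks differed among themselves in these genes. The mean of the 42 genes was 4.00, 4.60, 4.35, 4.54 and 4.02 in mice 1 to 5, while it lay between 3.38 and 3.46 at 8 weeks, 3.36 and 3.43 at 12 weeks, 3.38 and 3.67 at 16 weeks and 3.26 and 3.95 at 20 weeks. Mice 1 and 5 were the lowest 2 in 25 of the 42 genes (11.5% of all genes), and mice 2 and 4 the highest 2 in 14 (3.34% of all genes). Smgc, a mucin of the immature submandibular acini, split the mice in the same way, with 7.82, 12.66, 13.12, 12.33 and 8.69 at 4 weeks, against 8.56 or less in all later mice. The mean over the 9 acinar genes, Smgc among them, did not, at 12.05, 12.00, 12.87, 12.50 and 12.28, with mouse 2 the lowest. Cdkn1c, an inhibitor of Cdk kinases, had 2.80, 7.74, 7.79, 4.97 and 2.80 at 4 weeks and between 2.67 and 2.79 in all later mice. Mice 2, 3 and 4 were thus high in Smgc, Cdkn1c and Ccna2 alike, a set of genes chosen after their values were seen, and its relation to litter could not be tested.

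The 5 mice of 16 weeks differed as well. Mouse 2 was the highest in 21 of the 42 genes (43.7% of all genes) and mouse 3 the lowest in 10 (42.5%). Mice 2 and 3 were the highest 2 in 11 genes (3.59% of all genes) and mice 2 and 4 in 10 (10.4%). Mice 3 and 4 were the highest 2 in 9 (8.67% of all genes). Among the 9 were Mki67 (4.04 and 5.36, against 3.09 to 3.35), Cdc20 (7.36 and 7.64, against 5.43 to 5.96), Ube2c (4.21 and 3.87, against 2.96 to 3.23) and Birc5 (3.60 and 4.51, against 2.64 to 3.07). The same mice carried markers of B cells: the mean of 6 B cell genes was 6.22 in both, against 2.61 to 2.73 in the other 3, and Cd79a, a chain of the B cell receptor, was at 8.64 and 8.52, against 2.55 to 2.65. The T cell genes, with a mean over 7 of 4.09 and 4.05, against 3.02 to 3.23, went with them, as did 4 genes of lymph node stroma and venules, with a mean of 5.87 and 5.57, against 2.91 to 3.64. The replication genes Mcm5 and Mcm6 were at 7.37 and 7.71 and at 7.65 and 7.45 in these mice, against 4.75 to 5.20 and 5.09 to 6.15. Cdk1 did not follow, at 2.85 and 2.92, against 2.79 to 3.26. The part of lymphocytes in these values was not tested.

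At 4 weeks the B cell genes split the mice in another way than the mitosis genes. The mean of the 6 B cell genes was 2.65, 2.71, 3.26, 3.95 and 3.58 in mice 1 to 5, and Cd79a was at 2.57, 2.63, 4.06, 5.71 and 4.07. The 4 genes of lymph node stroma and venules differed likewise, with a mean of 3.07, 3.12, 4.54, 5.36 and 4.74, and Glycam1, a mucin-like ligand of high endothelial venules, was at 4.14, 4.27, 9.11, 9.62 and 8.07, where it lay between 3.77 and 4.19 at 12 weeks. Mice 1 and 2, low in both lists, had Mki67 at 5.97 and 6.74 and Cdk1 at 5.31 and 6.66. Without the 7 arrays whose B cell mean was above 3.27, which leaves 3, 4, 5, 3 and 3 mice per age, 17 genes fell at 8 weeks, 23 fell and 1 rose at 12 weeks, and 14 fell at 16 weeks and at 20 weeks. In that fit 0.863%, 2.09%, 1.76% and 1.39% of all genes were called lower, and 5.64% were called higher at 12 weeks. Mouse 3 of 4 weeks, just under that level, was kept. The part of lymphoid cells in the 4-week values was not tested.

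**Figure D5:**
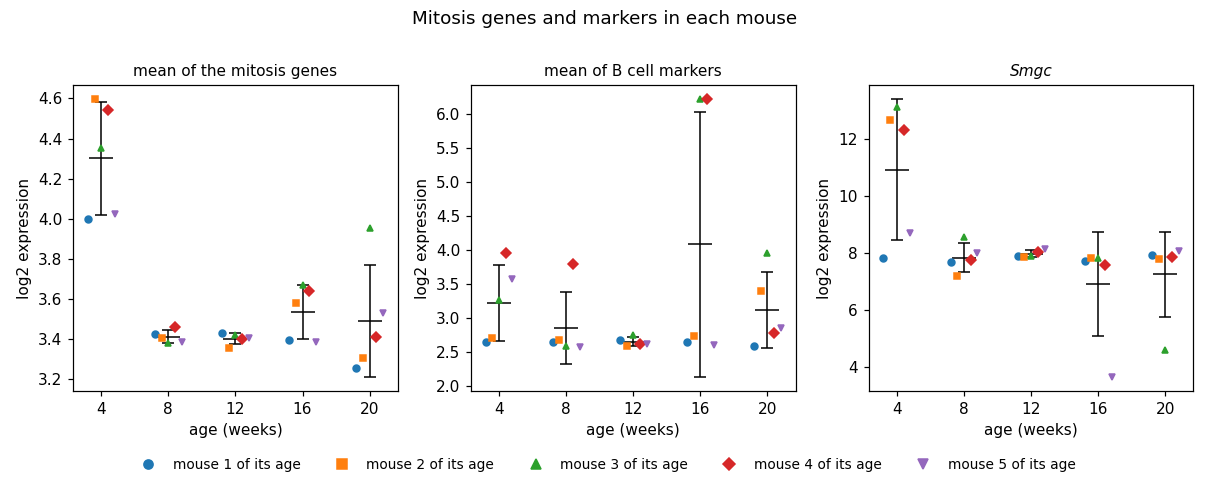
Mean log2 expression of the 42 mitosis genes (left), of 6 B cell markers (middle) and log2 expression of Smgc (right) in each mouse (points) by age in weeks, with the mean and SD of 5 mice (bars). The mitosis mean was highest in mice 2, 3 and 4 of 4 weeks, which were also high in Smgc, and mice 3 and 4 of 16 weeks stood out in B cell markers. Smgc was chosen after its values were seen.

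Mouse 3 of 20 weeks, whose array stood apart, was the highest of its age in 38 of the 42 genes, against 52.4% of all genes. Its values included 5.39 for Kif23, 6.11 for Hmmr and 5.26 for Aurkb, against at most 4.26, 4.78 and 4.14 in the other 4 mice. Its array median of 3.64 was the highest of the 25, and it was also the highest of its age in lymphoid markers, with a mean of 5.59 for lymph node stroma and venules, 5.57 for 5 plasma cell genes and 3.97 for B cell genes, against at most 3.92, 4.16 and 3.40 in the other 4 mice. The duct genes were lower in it, with a mean over 7 of 7.79, against 9.27 or more. The part of RNA quality, scaling or cell types in these values was not tested.

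Over the 25 mice, the median correlation between pairs of the 42 genes was 0.56 (861 pairs, lowest -0.74), and after the mean of each age was taken away it was 0.40. Within an age, over 5 mice, it was 0.41 at 4 weeks, 0.37 at 8 weeks, 0.52 at 12 weeks, 0.29 at 16 weeks and 0.91 at 20 weeks, where mouse 3 was the highest in nearly every gene. Among the 12 genes with the smallest F-test p, which were picked for a change with age, it was 0.77, 0.00, 0.20, 0.54 and 0.71 at these ages. All points share arrays and their scaling, and these values are descriptions.

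Other genes of the mitotic machinery were taken from lists of the same pathways. Of 31 further kinetochore and centromere genes 3 fell at each of the 4 ages, Spc24, Spc25 and Cenpw. Spc24 and Spc25 belong with Ndc80 and Nuf2 to 1 complex, and had log2 fold changes of -1.21, -1.16, -1.17 and -1.01 and of -0.77, -0.71, -1.04 and -0.85 at 8, 12, 16 and 20 weeks, and Cenpw, which binds centromeric DNA, had -1.02, -1.04, -0.98 and -1.07. The median of this list at 8 weeks was -0.07, close to that of all genes.

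Of 29 further spindle, motor and cytokinesis genes 5 fell at 8 weeks and 3 at each later age, those 3 being Ckap2, Ckap2l and Stmn1, which act on microtubules. Ckap2 fell by 0.78 and Stmn1 by 1.15 on the log2 scale at 8 weeks (adjusted p = 2.11e-08 and 0.00213). In the other direction, Espl1, separase, the protease that securin holds back, rose at 12 weeks. It had 5.07, 6.21, 5.39, 5.86 and 5.44 at 12 weeks and 5.07, 4.67, 3.08, 3.75 and 4.60 at 4 weeks, the lowest mouse of 12 weeks standing just above the highest of 4 weeks, a difference of 1.36 on the log2 scale (adjusted p = 0.0129), at the age at which Pttg1 rose and 5.66% of all genes were called higher.

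Of 18 condensin and cohesin genes 4, 4, 3 and 2 fell at 8, 12, 16 and 20 weeks, and 0 rose. All were condensin subunits, the ring that compacts chromosomes: Ncaph fell at every age (log2 fold change -1.24, -1.28, -1.19 and -1.15), as did Smc4 (-0.93, -1.30, -1.07 and -1.06), Ncapg fell at 8, 12 and 16 weeks and Ncapg2 at 8 and 12 weeks. None of the cohesin genes passed.

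None of the 16 subunits and partners of the anaphase-promoting complex passed as lower. At 8 weeks 0 passed, with a median log2 fold change of 0.17, and at 12 weeks 1 of 16 rose, near the 5.66% of all genes called higher, Anapc4 (0.64, adjusted p = 0.0383), with a median of 0.33. At 16 and 20 weeks 0 passed in either direction. The activator Cdc20 and the enzyme Ube2c of the same machinery fell at all 4 ages, and the difference between them and the subunits was not tested. Of 15 kinases and phosphatases of mitotic entry and their partners, Cks1b, a Cdk-binding protein, rose at 12 weeks (0.69) and its relative Cks2 fell at 16 weeks (-1.24), with no other call.

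Genes of DNA replication fell beside the mitosis genes. Of 19 S phase genes 5, 5, 3 and 5 fell at 8, 12, 16 and 20 weeks and 0 rose, with a median of -0.36 at 8 weeks. Rrm2, the regulated subunit of the enzyme that makes deoxynucleotides, had 4.72, 4.99, 4.73, 5.41 and 4.78 at 8 weeks, against 6.91, 7.10, 7.05, 7.14 and 6.41 at 4 weeks, and fell at every age (by 2.0, 2.20, 1.88 and 1.42 on the log2 scale). So did Mcm6, of the replicative helicase (-1.53, -1.49, -1.28 and -1.94), and Tk1, thymidine kinase (-0.80, -0.85, -0.83 and -0.82). Cdt1, the loader of that helicase, fell at 8, 12 and 20 weeks, its inhibitor Gmnn at 8 weeks, Mcm5 at 12 weeks and Mcm7 at 20 weeks.

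Of 15 genes of the D and E cyclins, their kinases and the Cdk inhibitors, 1, 2, 2 and 2 fell and 0 rose. Ccnd2, cyclin D2, fell at 8 and 12 weeks (-0.39 and -0.48), Cdkn1c at 12 and 16 weeks, Cdkn2c at 16 and 20 weeks and Cdk6 at 20 weeks. Of 23 regulators of cell cycle transcription 0 fell, and E2f5 and E2f6, both counted as repressing members of the E2F family, rose at 8 weeks (0.67 and 0.37) and at 12 weeks (0.52 and 0.52), where 1.48% and 5.66% of all genes were called higher.

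Markers of other cell types moved over the same ages. Of 7 fibroblast genes 4, 5, 5 and 4 fell and 0 rose at 8, 12, 16 and 20 weeks, and the mean over the 7 lay between 7.24 and 7.66 in mice of 8 weeks, against 8.33 and 8.93 in mice of 4 weeks, without overlap. Col1a1, a collagen gene, fell by 1.89 on the log2 scale at 8 weeks. Of 7 endothelial genes 0, 3, 3 and 2 fell, Kdr and Tie1, both receptors of vessel growth, at 12, 16 and 20 weeks. Col1a1 at 4 weeks was 8.92, 9.26, 9.04, 8.63 and 8.60 in mice 1 to 5 and did not split the mice as Smgc did. The mean over the 7 endothelial genes was 3.91, 4.27, 4.24, 4.09 and 3.88 in these mice, with mice 2, 3 and 4 the high ones, as in Smgc. Of 7 T cell genes and 6 B cell genes 0 passed at any of the 4 ages. The part of fibroblasts or vessels in the mitotic transcripts was not tested.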

How the data were processed

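Glands of 25 mice were hybridised to Affymetrix mouse genome arrays. The authors deposited 1 table of normalized log2 expression values for 45101 probe sets. GCRMA is given in their methods and RMA in the submitters' notes on processing, and the version of either was not given in the sources used here. Values near the array's floor carry little measure of change. Platform annotation gave 1 symbol to 34958 probe sets, several to 932 and none to 9211. Probe sets with several symbols, 1 of Foxm1 among them, were left out, and 0 columns belonged to other series.

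Gene values were fitted with limma 3.58.1 in R 4.3.3 (lmFit, eBayes, age as a factor with 5 levels) over all 18194 genes, with Benjamini-Hochberg adjustment. The B-statistic was taken from a polynomial fit on age. Python 3.11.15 was used for descriptions. The code was tested on simulated data. The number of arrays, 5 per age, limits the precision, and each mouse gave 1 array.

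Values of every mouse are given for the 12 genes with the smallest F-test p, genes called higher, and genes whose probe sets disagreed in sign. The lowest, median and highest are given for genes with no call. From other lists the 3 genes with the smallest p at 8 weeks and calls against their list's direction are named, and further called genes were chosen after their values were seen. The members and lists were chosen with earlier results of these data known. Alternatives were other probe set rules, quantile normalization, array centring, array weights, a replicate block, trend and robust priors, the compared ages alone, genes above the median level only, and leaving out arrays.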

Additional observations from a re-analysis of the deposited data

Results flagged for a closer look

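Among the 15 genes given for every mouse, 75 groups of 5 mice were searched for a highest or lowest mouse whose gap to the next was over 0.71 of the group's range. In 6 groups 1 mouse stood so far apart, and chance alone gives about 1 in 20. Mouse 3 of 20 weeks was the highest in Ccnb2, at 2.55 with the next mouse at 2.37, and in Ccna2, at 2.75 with the next at 2.45. Its array correlated least with its age group. Mouse 3 of 16 weeks, high in B cell markers, was the highest in Cdca3, at 3.47 with the next at 2.96. Mouse 2 of 16 weeks was the highest in Cdk1, at 3.26 with the next at 2.92. Mouse 5 of 8 weeks was the highest in Pbk, at 3.70 with the next at 3.42. Mouse 1 of 12 weeks was the lowest in Cdca3, at 2.74 with the next at 2.88. Of these 6 values 5 lay below the lowest mouse of 4 weeks, and that of Ccna2 lay just above it (2.72).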

How the results depend on the processing

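With array weights 28, 38, 28 and 32 genes passed at 8, 12, 16 and 20 weeks against 4 weeks, the F-test passed 31, and 1 passed at 20 weeks against 16 weeks and 1 against 8 weeks. With these weights 6.1%, 34.4%, 11.3% and 22.4% of all genes were called lower at the 4 ages, and 6.84%, 20.5%, 8.61% and 13.5% higher. Without the 3 arrays of lowest correlation (mouse 2 of 16 weeks, mice 3 and 5 of 20 weeks), chosen after seeing the data, 29, 33, 30 and 31 genes passed. The F-test then passed 27, and 1 passed at 20 weeks against 16 weeks. In that fit 7.15%, 23.7%, 21.4% and 19.2% of all genes were called lower and 9.41%, 19.6%, 11.9% and 12.9% higher. For the F-test, the B-statistic and the later ages, no share of all genes was computed in the alternatives. Fitted on the compared ages alone, 8, 6 and 7 genes passed at 8, 16 and 20 weeks, with 0.396%, 0.682% and 0.209% of all genes called lower. With every probe set averaged, a rule without the expressed filter, 19, 23, 18 and 16 genes fell. There 0.769%, 1.4%, 1.74% and 1.55% of all genes were called lower. The cause of these differences was not tested.

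Leaving out 1 array at a time gave 14 to 24 genes at 8 weeks, 17 to 27 at 12 weeks, 13 to 24 at 16 weeks and 14 to 24 at 20 weeks, while 0.467% to 1.68%, 0.824% to 3.29%, 1.12% to 3.23% and 0.995% to 2.65% of all genes were called lower and 0.434% to 5.14%, 2.44% to 13.3%, 0.83% to 4.11% and 0.533% to 6.23% higher. It gave 13 to 24 by the F-test, 8 to 12 by the B-statistic and 0 to 0 in each comparison between later ages. The highest counts against 4 weeks came without mouse 3 of 20 weeks. The lowest were shared by several arrays, at 8 and 16 weeks by mice 3 and 4 of 4 weeks. At 12 weeks they came without mouse 4 of 4 weeks or mouse 2 or 5 of 12 weeks, and at 20 weeks without any 1 of many arrays. The 71 fold changes of genes that had passed gave 2616 values over the alternatives, of which 2468 passed in the same direction, 148 no longer passed and 0 were reversed. Pttg1 was not called at 12 weeks after quantile normalization, array centring or a trend and robust prior, nor without any 1 of 6 arrays.

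The ages share mouse numbers, but no label says that a number marks a litter or day. Same-numbered mice of different ages did not, on the median, deviate together (correlation -0.04 over 50 pairs of mice, from -0.61 to 0.60). For different numbers the median was 0.007 over 200 pairs, from -0.60 to 0.64. With the replicate number as a block, 18, 21, 17 and 15 genes passed at the 4 ages, 14 by the F-test and 11 by the B-statistic, with none between later ages. That fit called 0.676%, 1.26%, 1.48% and 1.34% of all genes lower and 1.31%, 5.24%, 1.57% and 0.945% higher.

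Limits lie in the design and the floor. Age, disease and any change of cell composition cannot be told apart in whole glands of 1 strain. For genes near the floor at 4 weeks the size of any decrease was limited. Among them, Aurka and Cenpf were called with array weights or without the 3 arrays. Cenpf was also called with probe sets tested singly, at 8, 12 and 16 weeks. At 12 weeks it was further called on the compared ages alone, without mouse 3 of 20 weeks and without the arrays high in B cell genes. Whether a gene's probe sets all read the same transcript was not tested.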
